A study of Homo sapiens with 9 samples.

Results

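The whole change that a mimic of miR-150-5p brought to BT-549 cells was read by setting the 3 arrays of mimic-transfected cells against the 3 arrays of mock-transfected cells, which are 6 of the 9 arrays of the study. BT-549 is an established human line of triple-negative breast cancer, grown in RPMI-1640 with 10% FBS. Mimic cells received a synthetic mature miR-150-5p at 50 nM, carried by the lipid reagent Lipofectamine RNAiMAX. Mock cells received the lipid reagent and no RNA, and the remaining 3 arrays held cells given a negative control RNA at 50 nM in the same reagent. All groups had a change of medium at 24 h and gave RNA at 72 h after transfection. All values come from 1 cell line at 1 dose and 1 time. The members described are all 14884 genes that the array's annotation ties to a feature of 1 symbol, each read on its brightest feature over the 9 arrays.

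A microRNA is a short RNA that, held by an Argonaute protein, pairs through its seed with sites in messenger RNAs and lowers their level or their translation. miR-150 is best known from lymphocytes, where it restrains the transcription factor MYB. A mimic loads the pathway with 1 microRNA far above what a cell makes, so by 3 days its direct targets and the genes downstream of them are read together. Cells given lipid alone lack both the sequence and the presence of any small RNA, so this contrast holds the effects of both, and the negative control values are set beside it for that reason. Both contrasts share arrays with the one described, and no agreement between them was counted.

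Each array gives a log2 signal per feature, so a difference of 1 is a 2-fold change. The median signal of an array was 2.43 to 2.48. Arrays of 1 group correlated at a Pearson's r of 0.981 to 0.989 and mimic with mock arrays at 0.977 to 0.984, over features that are not independent of each other. Whether the 3 samples of a group grew as separate cultures is not in the labels, and the p-values then measure only how far these samples spread, which may be technical. Markers of a mesenchymal breast line were read at a mean of 8.34 to 8.62 on the mock arrays and 8.15 to 8.32 on the mimic arrays over 6 measured genes, with VIM, FN1 and AXL among them. Means were 3.53 to 3.72 and 3.45 to 3.57 over 11 luminal breast markers, 3.04 to 3.16 and 2.94 to 3.13 over 5 leukocyte markers, and 2.40 to 2.51 and 2.31 to 2.42 over 7 endothelial markers. No gene of these 4 lists passed the test. The estrogen receptor gene ESR1 and the progesterone receptor gene PGR changed by -0.06 and 0.03. The 23 small Cajal body RNA features, which are short nuclear RNAs, averaged 5.62, 6.78 and 5.64 in the mock cells, 5.91, 6.83 and 5.87 with the negative control and 6.43, 5.95 and 6.75 with the mimic. Negative control 2, mock 2 and the mimic arrays 1 and 3 thus stood high, and 0 of the 23 passed.

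Against mock, 580 of 14884 genes changed, or 3.9%, at an adjusted p under 0.05 in limma with Benjamini-Hochberg adjustment. Of these, 339 rose (2.28%) and 241 fell (1.62%), and 2609 genes had an unadjusted p under 0.05. The median change was 0.62 among the rises, -0.72 among the falls and 0 over all genes. Falls reached further than rises, since 49 genes fell and 20 rose by at least 2-fold. In all 580 the 3 mimic arrays lay apart from the 3 mock arrays, as they did in 3003 genes or 20.2% of those tested. The count rested on single arrays, being 219 without mock 1, 376 without mock 2, 188 without mimic 1, 299 without mimic 2 and 263 without mimic 3. The balance depended on scaling and on single arrays. Rises made up 58.4% of the changed genes, but 44.6% (231 rose, 287 fell) after another quantile normalization and 68.8% (484 rose, 220 fell) with arrays centred on their medians. They made up 40.4% without mimic 1 (76 rose, 112 fell), 43.1% without mock 2 (162 rose, 214 fell) and 49.3% without mock 1 (108 rose, 111 fell). With the small Cajal body RNA mean as a covariate 696 genes passed, of which 492 were among the 580, and 26 of 186 changed genes followed singly lost their call. For scale, the same fit called 473 genes (3.18%) in the mimic against the negative control and 96 (0.645%) in the negative control against mock, or 61 with the replicate number as a block.

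**Figure D1:**
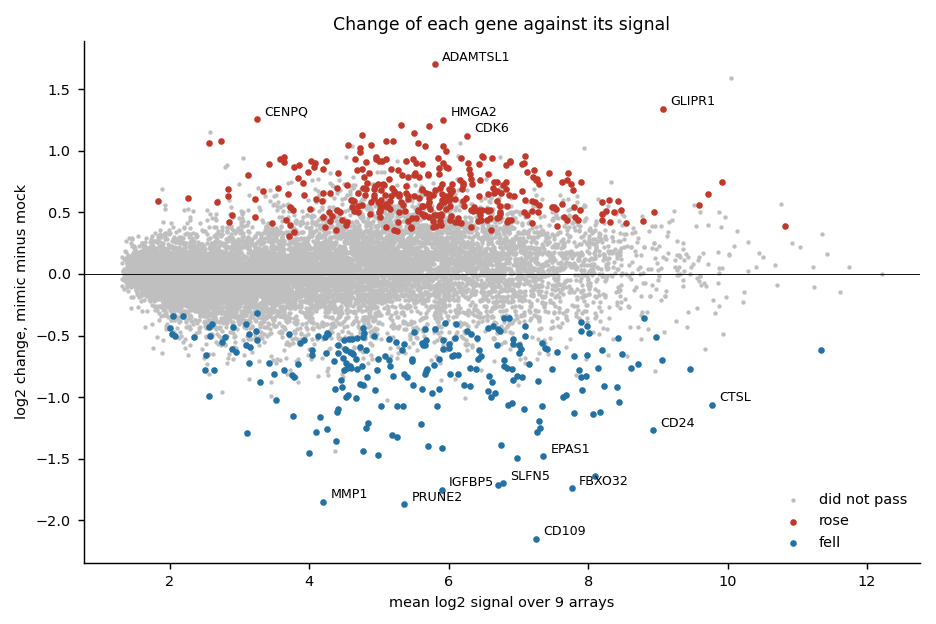
Each point is 1 of 14884 genes, placed by its mean log2 signal over 9 arrays (horizontal) and its log2 change in mimic against mock (vertical), with 339 genes that rose in red, 241 that fell in blue and the others in grey. CD109 lies lowest at -2.15 and ADAMTSL1 highest among the changed genes at 1.70, and few changed genes lie at the left, where signals are low.

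Changed genes were mostly bright and protein coding. Of the 3721 genes with the lowest mean signal (up to 2.22), 1 rose and 5 fell, against 13 and 25 of the next 3721, 99 and 75 of the 3721 above these and 226 and 136 of the 3721 brightest. Of 11916 protein-coding genes, 332 rose and 217 fell (4.61% changed). Of 1398 long noncoding RNA genes 2 rose and 14 fell (1.14%), and of 1072 microRNA genes 3 rose and 6 fell (0.84%). Median signals were 3.79, 2.28 and 2.05 for these kinds of gene, so the noncoding kinds were read closer to the floor of the array.

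The largest rise was that of ADAMTSL1, which encodes a secreted matrix glycoprotein related to the ADAMTS proteases but without their activity. Its signals were 5.24, 4.96 and 5.33 in the mock cells, 5.25, 5.25 and 5.53 with the negative control and 6.88, 7.05 and 6.71 with the mimic. Every mimic array lay above every array of both other groups, and the rise was 1.70 ± 0.13 (SE, 3.26-fold, n = 3 per group, adjusted p = 0.00042). GLIPR1, a secreted or membrane-bound protein first described in glioma, was next, with 8.70, 8.29 and 8.53 in the mock cells, 8.78, 8.94 and 8.88 with the negative control and 9.99, 9.79 and 9.78 with the mimic. It rose by 1.34 ± 0.11 (adjusted p = 6e-04), and the negative control arrays lay between the groups. TFPI, the inhibitor of tissue factor in blood clotting, read 5.22, 5.15 and 5.35 in the mock cells and 6.57, 6.39 and 6.36 with the mimic, a rise of 1.20 ± 0.11 (adjusted p = 0.0011). The negative control was at 0.21 against mock for TFPI and at 0.36 for GLIPR1, and neither passed.

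HMGA2, CDK6, SCML2, SP4, POLR3B and CFAP47 were also among the 15 largest rises. HMGA2, a chromatin protein of embryonic tissue that many tumours express again, read 5.49, 5.37 and 5.42 in the mock cells, 5.82, 5.40 and 5.78 with the negative control and 6.45, 7.0 and 6.58 with the mimic. The mimic arrays were all above the others, by 1.25 ± 0.15 over mock (adjusted p = 0.0035). CDK6, a kinase that moves cells through G1, read 5.81, 5.54 and 5.74 in the mock cells, 6.34, 6.16 and 6.30 with the negative control and 6.99, 6.68 and 6.78 with the mimic. The groups formed 3 steps without overlap for CDK6, at 1.12 ± 0.11 for mimic against mock (adjusted p = 0.0011), 0.57 (adjusted p = 0.058, 0.047 with the replicate block) for the negative control against mock and 0.55 (adjusted p = 0.027) for mimic against negative control. SCML2, a Polycomb group protein, rose by 1.21 ± 0.14 (adjusted p = 0.0027), and the negative control stood at 0.86 (adjusted p = 0.03, 0.076 with the replicate block) against mock. The transcription factor SP4 rose by 1.05 ± 0.16 (adjusted p = 0.0081), with the negative control at 0.72 (adjusted p = 0.087). POLR3B, a core subunit of RNA polymerase III, which transcribes transfer RNA and 5S ribosomal RNA genes, rose by 1.05 ± 0.12 (adjusted p = 0.0027) while the negative control was at -0.05. CFAP47, named for cilia and flagella, read 4.95, 4.97 and 4.97 in the mock cells, 4.21, 4.31 and 4.37 with the negative control and 6.17, 6.06 and 5.91 with the mimic. No group overlapped another, and the negative control was the lowest. CFAP47 rose by 1.08 ± 0.088 against mock (adjusted p = 0.00056) and was at -0.67 (adjusted p = 0.012) in the negative control against mock.

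The other 6 of the 15 were GINS4 and MCM10 of the replication machinery, CENPQ of the centromere, RRP12 of ribosome assembly and the transcription factors PLAGL2 and USF1. GINS4 rose by 1.13 ± 0.15 (adjusted p = 0.0056), its other, dimmer feature giving 0.34. CENPQ rose by 1.26 ± 0.24 (adjusted p = 0.022, as high as 0.092 with mock 1, mimic 1 or mimic 3 left out). MCM10 rose by 1.06 ± 0.21 (adjusted p = 0.03, as high as 0.11 with mock 1, mock 3, negative control 1, mimic 1 or mimic 3 left out). RRP12 rose by 1.04 ± 0.18 (adjusted p = 0.017, as high as 0.076 with mock 1, mimic 1 or mimic 2 left out). PLAGL2 was at 1.14 ± 0.21 (adjusted p = 0.021, as high as 0.083 with mock 1, mock 2, mimic 1, mimic 2 or mimic 3 left out), with mock 3 at 5.50 and mock 1 and 2 at 4.66 and 4.70. USF1 was at 1.08 ± 0.24 (adjusted p = 0.039, as high as 0.14 with any array but mock 3 and negative control 2 left out). These 5 calls lean on single arrays, and the other 10 of the 15 passed in every fit that left out 1 array. In the negative control against mock CENPQ was at 0.79, MCM10 at 0.69, USF1 at 0.67, PLAGL2 at 0.49, GINS4 at 0.44 and RRP12 at 0.2. None of these negative control values passed.

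The largest fall was that of CD109, a membrane-anchored protein that binds TGF-beta and dampens its signal. Its signals were 8.26, 7.99 and 8.15 in the mock cells, 7.59, 7.54 and 7.74 with the negative control and 6.09, 6.05 and 5.82 with the mimic. The 3 groups did not overlap, with the mimic lowest, and the change was -2.15 ± 0.11 (4.43-fold lower, adjusted p = 2.8e-05). Its other feature, with a mean signal of 3.44, gave -0.24. SNAI2 (Slug), a zinc finger repressor of epithelial genes, read 7.43, 7.26 and 7.50 in the mock cells, 6.89, 6.88 and 7.36 with the negative control and 5.53, 5.73 and 5.79 with the mimic. All mimic arrays lay below every other array, at -1.71 ± 0.14 against mock (adjusted p = 0.00057). IGFBP5, which binds insulin-like growth factors outside the cell, fell by 1.75 on the log2 scale (SE 0.14, adjusted p = 0.00042), with 6.49, 6.44 and 6.90 in the mock cells and 4.78, 5.02 and 4.76 with the mimic. FBXO32 (atrogin-1), a ubiquitin ligase subunit switched on by FOXO factors, fell by 1.74 (SE 0.13, adjusted p = 4e-04), with 8.51, 8.27 and 8.79 in the mock cells and 6.67, 6.92 and 6.74 with the mimic. For both genes every mimic array lay at least 1 unit below every array of the other groups.

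SLFN5, HEG1, SLC49A4, EPAS1 and HRCT1 also fell, and the negative control against mock is set beside each. SLFN5, of the interferon-linked Schlafen family, was at -1.70 ± 0.18 (adjusted p = 0.0014), against -0.06 in the negative control. HEG1, a receptor of endothelial junctions, was at -1.64 ± 0.23 (adjusted p = 0.0056), against -0.06. SLC49A4, a transporter of the lysosome membrane, was at -1.49 ± 0.17 (adjusted p = 0.0022), against 0.17. EPAS1, the hypoxia-inducible factor HIF-2 alpha, read 7.97, 7.76 and 8.13 in the mock cells, 7.76, 7.23 and 7.91 with the negative control and 6.43, 6.65 and 6.34 with the mimic, a fall of 1.48 (SE 0.17, adjusted p = 0.0027) in which no mimic array reached a control array. HRCT1 was at -1.44 ± 0.17 (adjusted p = 0.0027), against -0.09.

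In the other 6 of the 15 largest falls the negative control stood further from mock. MMP1, interstitial collagenase, read 5.35, 5.30 and 5.44 in the mock cells, 3.83, 3.74 and 3.64 with the negative control and 3.62, 3.43 and 3.50 with the mimic. The mimic arrays lay just below those of the negative control, so MMP1 was at -1.85 ± 0.087 against mock (adjusted p = 2.8e-05), -1.63 (adjusted p = 1e-04) in the negative control against mock and -0.22 (adjusted p = 0.24) between the small RNAs. PRUNE2 was at -1.87 ± 0.18 (adjusted p = 0.0011), and its mimic and negative control arrays overlapped. The negative control of PRUNE2 was at -1.64 (adjusted p = 0.0065) against mock. PAPSS2, which makes the sulfate donor of the cell, was at -1.45 ± 0.11 (adjusted p = 0.00042), with the negative control at -1.13 (adjusted p = 0.0032). CDON, a co-receptor of hedgehog signals, was at -1.47 ± 0.16 (adjusted p = 0.0016), with the negative control at -0.92 (adjusted p = 0.034, 0.081 with the replicate block). The T-box factor EOMES read 6.70, 6.60 and 6.52 in the mock cells, 5.91, 5.91 and 5.95 with the negative control and 5.22, 5.33 and 5.05 with the mimic, 3 steps without overlap, and was at -1.41 ± 0.091 (adjusted p = 0.00021). TNC (tenascin C), a matrix glycoprotein of wounds and tumours, also formed 3 steps, at -1.40 ± 0.1 for mimic against mock (adjusted p = 4e-04), -0.87 (adjusted p = 0.0071) for negative control against mock and -0.53 (adjusted p = 0.024) between the small RNAs. All 15 falls passed in every fit that left out 1 array.

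**Figure D2:**
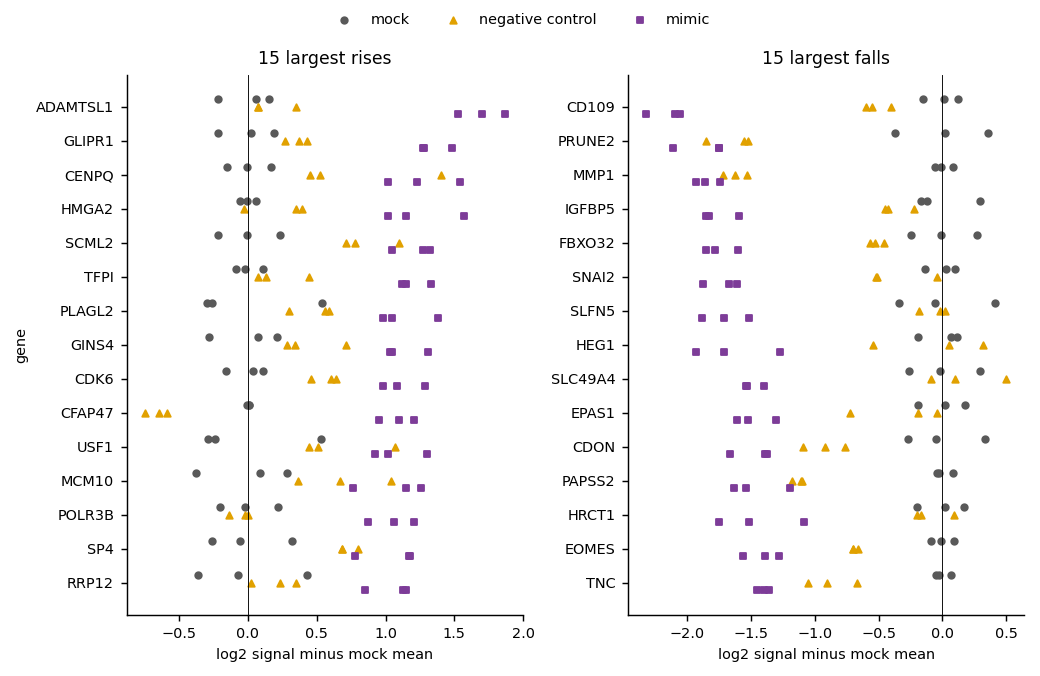
Log2 signal of each array minus the gene's mock mean (horizontal) for the 15 largest rises (left) and the 15 largest falls (right), with mock as grey circles, negative control as yellow triangles and mimic as purple squares, 3 arrays each. The mimic squares lie apart from the mock circles for all 30 genes, while the negative control triangles lie near mock for SLFN5 and near the mimic for MMP1 and PRUNE2.

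CDC6, several subunits of the MCM helicase and other genes of DNA replication rose. Replication origins are loaded with the MCM2 to MCM7 helicase by CDC6 and CDT1, and GINS and CDC45 then turn the helicase on at the start of S phase. Of 39 measured genes of the G1/S transition and replication, 19 rose (48.7%), 0 fell and 20 did not pass. Over all genes 2.28% rose and 1.62% fell. The list's median change was 0.46 against 0 over all genes. The list's mean signal was 5.51, 5.63 and 5.54 in the mock cells, 5.69, 5.79 and 5.60 with the negative control and 6.15, 6.03 and 6.02 with the mimic, so the mimic arrays lay above all others. CDC6 read 4.11, 4.50 and 4.35 in the mock cells, 4.37, 4.70 and 4.16 with the negative control and 5.28, 5.25 and 5.23 with the mimic. All mimic arrays exceeded all control arrays, by 0.93 ± 0.14 over mock (adjusted p = 0.0087), while the negative control was at 0.09. Of the helicase, MCM2 (0.90 ± 0.14, adjusted p = 0.0095) and MCM3 (0.73 ± 0.1, adjusted p = 0.0062) rose in every fit, and MCM3 read 7.15, 6.95 and 7.01 in the mock cells, 7.03, 7.25 and 6.98 with the negative control and 7.90, 7.67 and 7.73 with the mimic. MCM5 rose by 0.96 ± 0.19 (adjusted p = 0.025, as high as 0.096 with mock 1, mimic 1, mimic 2 or mimic 3 left out). MCM7 rose by 0.92 ± 0.18 (adjusted p = 0.028, as high as 0.1 with mock 1, mock 2, mimic 1 or mimic 3 left out). MCM4 rose by 0.46 ± 0.082 (adjusted p = 0.017, as high as 0.073 with mock 1, mimic 1 or mimic 2 left out), and MCM6 was at 0.43 and did not pass. Of the GINS complex, GINS4 is given above and GINS2 rose by 0.80 ± 0.14 (adjusted p = 0.016, as high as 0.061 with mock 1, mimic 1 or mimic 3 left out). GINS3 rose by 0.91 ± 0.17 (adjusted p = 0.019, as high as 0.085 with mock 1, mimic 1, mimic 2 or mimic 3 left out), and GINS1 was at 0.08 and did not pass.

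Among the regulators, E2F7, an E2F factor that represses replication genes, rose by 0.73 ± 0.096 (adjusted p = 0.0047), and UHRF1, which carries DNA methylation through S phase, by 0.56 ± 0.085 (adjusted p = 0.009). The activator E2F1 was at 0.39 and did not pass. Of the cyclins of S phase entry, CCNE1 rose by 0.82 ± 0.17 (adjusted p = 0.033, as high as 0.12 with mock 1, mock 3, mimic 1, mimic 2 or mimic 3 left out). CCNE2 rose by 0.86 ± 0.19 (adjusted p = 0.045, as high as 0.15 with any array but negative control 2 and mimic 2 left out). CDC25A, a phosphatase that activates cyclin-dependent kinases, rose by 0.72 ± 0.16 (adjusted p = 0.045, as high as 0.15 with any array but mock 3 and mimic 3 left out). CLSPN, a mediator of the replication checkpoint, rose by 0.94 ± 0.16 (adjusted p = 0.014, as high as 0.054 with mimic 1 or mimic 2 left out), and its other, dimmer feature gave 0.06. Of the enzymes that make DNA precursors, TYMS was at -0.42 and RRM2 at -0.04, and neither passed. DBF4, a partner of the kinase CDC7, rose by 0.53 ± 0.12 (adjusted p = 0.046, as high as 0.16 with any array but negative control 2 left out). DNMT1, which copies DNA methylation, rose by 0.39 ± 0.091 (adjusted p = 0.046, as high as 0.13 with any array but negative control 1 and negative control 2 left out). With CDK6 and MCM10, given above, these make the 19. The count of 19 was 8 without mock 1, 7 without mimic 1, 12 without mimic 2 and 10 without mimic 3. The members that kept their call in every fit were CDC6, CDK6, E2F7, GINS4, MCM2, MCM3 and UHRF1. Each array reads the RNA of a whole culture, so more cells in a phase of the cycle and more RNA per cell cannot be told apart.

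RANGAP1, PLK1, INCENP and other genes of mitosis rose. Of 58 measured, 17 rose (29.3%) and 0 fell (median 0.45), beside 2.28% rising and 1.62% falling over all genes. Of 24 centromere and kinetochore genes 7 rose (29.2%) and 0 fell (median 0.46). The mitosis list averaged 6.39, 6.44 and 6.26 in the mock cells, 6.61, 6.73 and 6.50 with the negative control and 6.92, 6.73 and 6.77 with the mimic. Its negative control arrays lay above all mock arrays, and negative control 2 reached the level of mimic 2. The centromere list likewise averaged 4.96, 5.06 and 4.80 in the mock cells, 5.08, 5.33 and 4.94 with the negative control and 5.40, 5.32 and 5.41 with the mimic, with negative control 2 among the mimic arrays. INCENP, which anchors Aurora B kinase at centromeres, read 4.91, 4.90 and 5.16 in the mock cells, 5.49, 5.55 and 5.52 with the negative control and 5.64, 5.69 and 5.61 with the mimic. It was at 0.66 ± 0.087 for mimic against mock (adjusted p = 0.0047), and the negative control was close behind at 0.53 (adjusted p = 0.03, 0.088 with the replicate block). The mitotic kinase PLK1 read 7.99, 8.03 and 7.83 in the mock cells, 8.37, 8.37 and 8.46 with the negative control and 8.50, 8.66 and 8.48 with the mimic, a rise of 0.60 ± 0.087 (adjusted p = 0.0073) with the negative control at 0.45 (adjusted p = 0.062). RANGAP1, which makes Ran hydrolyse GTP, read 5.64, 5.45 and 5.60 in the mock cells, 5.59, 5.82 and 5.87 with the negative control and 6.68, 6.57 and 6.45 with the mimic and was the member with the largest rise, at 1.00 ± 0.1 (adjusted p = 0.0014). The negative control of RANGAP1 was at 0.19, nearer mock than for INCENP or PLK1.

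The motor KIF15 (0.73 ± 0.095, adjusted p = 0.0045) and GTSE1 (0.53 ± 0.084, adjusted p = 0.0099), a protein of microtubule tips, rose in every fit as well. So did KIF24 (0.99 ± 0.087, adjusted p = 0.00066), a kinesin of centrioles. Of 42 kinesins 5 rose (11.9%) and 0 fell, beside 2.28% and 1.62% of all genes. The negative control of KIF24 was at 0.60 against mock (adjusted p = 0.018, 0.056 with the replicate block). Of the centromere, CENPO (0.70 ± 0.083, adjusted p = 0.0027) kept its call in every fit. The motor KIF20B rose by 0.96 ± 0.16 (adjusted p = 0.013, and 0.056 with mimic 1 left out). ESPL1, the separase that cuts cohesin, rose by 0.92 ± 0.16 (adjusted p = 0.017, as high as 0.071 with mock 1, mock 2 or mimic 3 left out). BIRC5 (survivin), of the complex of INCENP and Aurora B, rose by 0.79 ± 0.18 (adjusted p = 0.048, as high as 0.17 with any array but negative control 2 and mimic 2 left out). KIFC1, a motor that bundles spindle poles, rose by 0.76 ± 0.14 (adjusted p = 0.02, as high as 0.086 with mock 1, mock 3, mimic 1 or mimic 3 left out), and its other features gave 0.04 and 0.81. Of the kinetochore, SKA1 rose by 0.79 ± 0.15 (adjusted p = 0.026, as high as 0.096 with mock 1, mock 3, mimic 1, mimic 2 or mimic 3 left out). The centromere gene CENPN rose by 0.71 ± 0.14 (adjusted p = 0.029, as high as 0.11 with mock 1, mock 3, mimic 1, mimic 2 or mimic 3 left out). CENPK rose by 0.67 ± 0.14 (adjusted p = 0.033, as high as 0.12 with any array but negative control 1, negative control 2 and negative control 3 left out). For the genes from KIF20B to CENPK the negative control against mock did not pass. It was at 0.56 for KIF20B, 0.10 for ESPL1, 0.60 for BIRC5, 0.39 for KIFC1, 0.59 for SKA1, 0.50 for CENPN and 0.08 for CENPK. The count of 17 mitosis genes was 7 without mock 1, 11 without mock 2, 8 without mock 3, 11 without negative control 3, 6 without mimic 1 and 7 without mimic 3, and the count of 7 centromere genes was 1 without mock 1, 2 without mock 3, 1 without mimic 1, 2 without mimic 2 and 1 without mimic 3. Proliferation markers that did not pass were MKI67 at 0.25, TOP2A at 0.39, CCNB1 at 0.58 and AURKA at 0.27. Of 24 DNA repair genes 2 rose (8.33%) and 0 fell (median 0.26). They were the exonuclease EXO1 (1.04 ± 0.093, adjusted p = 8e-04), with 5.45, 5.46 and 5.33 in the mock cells and 6.60, 6.44 and 6.30 with the mimic, and XRCC2 (0.77 ± 0.14, adjusted p = 0.02, as high as 0.085 with mock 1, mock 2, mimic 1 or mimic 2 left out), of homologous recombination. The negative control against mock was at 0.49 for EXO1 and 0.12 for XRCC2, and neither passed.

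**Figure D3:**
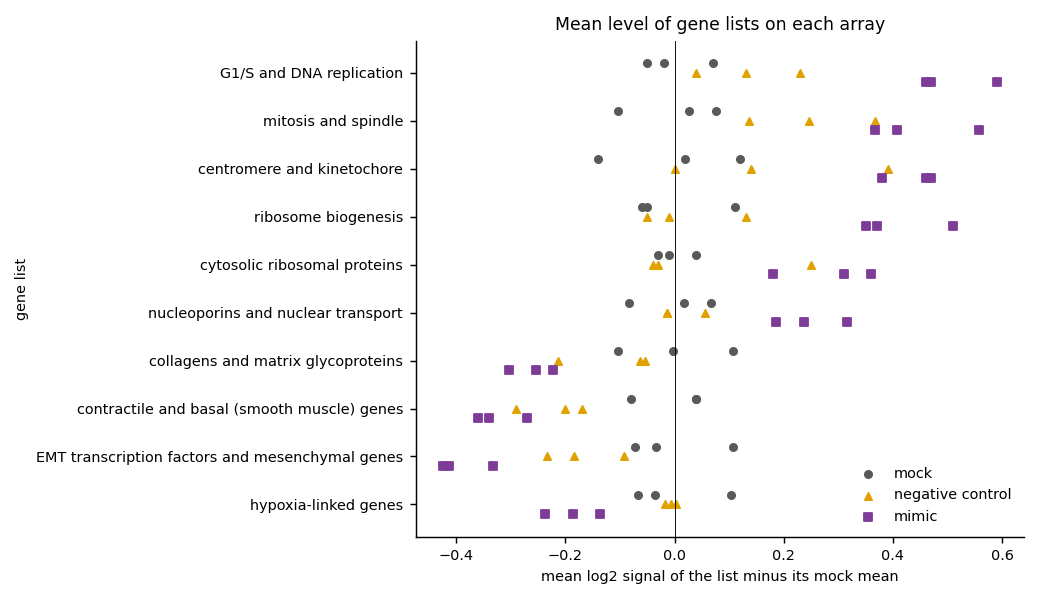
Mean log2 signal of the measured members of 10 gene lists on each array, minus the list's mock mean (horizontal), with 3 arrays each of mock (grey circles), negative control (yellow triangles) and mimic (purple squares). The 3 mimic arrays lie above the 3 mock arrays in the first 6 lists and below them in the last 4, and the negative control arrays lie between or overlap with either group.

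Promoters of these genes were read because replication and mitosis genes are textbook targets of different promoter elements. E2F factors bind an E2F box, and the MuvB complex with B-MYB or DREAM binds the cell cycle genes homology region (CHR). The windows are RefSeq sequences of GRCh38.p14, each 300 bases long and ending 50 bases after the gene's start, and both strands were searched for the E2F box as TTTCCCGC, TTTCGCGC, TTTGCCGC or TTTGGCGC and for the CHR as TTTGAA or TTTAAA. An E2F box was found in 20 of 32 replication genes with a window (62.5%), against 578 of 10749 tested genes (5.377%) and 3.315% of all 35116 windows. It was found in 10 of the 15 replication genes with a window that rose, so those that rose held it at about the share of the whole list. A CHR was found in 41 of 49 mitosis genes (83.673%), against 23.584% of tested genes, and in 13 of the 15 with a window that rose. CCAAT, the box that NF-Y binds, stood in 40 of 49 mitosis genes (81.633%), against 41.436% of tested genes. These matches describe letters in the window and not bound sites, and genes were listed by their function, which is known to go with these boxes. CDC6 lies at chr17:40287629-40287928 on the plus strand, MCM3 at chr6:52284693-52284992 on the minus strand, PLK1 at chr16:23678639-23678938 on the plus strand and INCENP at chr11:62123761-62124060 on the plus strand, the first 2 shown for the E2F box and the others for the CHR, with the matches in capitals.
CDC6 promoter: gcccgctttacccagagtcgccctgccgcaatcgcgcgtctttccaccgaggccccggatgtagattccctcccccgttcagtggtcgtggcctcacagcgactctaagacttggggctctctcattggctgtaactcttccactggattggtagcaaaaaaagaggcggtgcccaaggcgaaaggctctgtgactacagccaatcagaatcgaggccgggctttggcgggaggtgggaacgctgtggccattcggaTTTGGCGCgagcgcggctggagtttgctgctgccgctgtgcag
MCM3 promoter: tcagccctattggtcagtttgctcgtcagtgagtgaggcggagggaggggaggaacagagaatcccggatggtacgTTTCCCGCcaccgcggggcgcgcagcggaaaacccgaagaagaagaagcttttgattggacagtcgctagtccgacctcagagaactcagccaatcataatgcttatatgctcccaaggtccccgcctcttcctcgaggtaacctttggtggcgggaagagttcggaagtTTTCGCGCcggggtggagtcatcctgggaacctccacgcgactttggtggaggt
PLK1 promoter: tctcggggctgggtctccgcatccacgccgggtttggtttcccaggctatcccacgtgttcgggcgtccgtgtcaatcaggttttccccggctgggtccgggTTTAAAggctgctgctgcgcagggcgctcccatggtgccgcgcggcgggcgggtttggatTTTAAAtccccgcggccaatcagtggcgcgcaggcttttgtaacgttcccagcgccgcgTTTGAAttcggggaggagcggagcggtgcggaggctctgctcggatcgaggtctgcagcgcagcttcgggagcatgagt
INCENP promoter: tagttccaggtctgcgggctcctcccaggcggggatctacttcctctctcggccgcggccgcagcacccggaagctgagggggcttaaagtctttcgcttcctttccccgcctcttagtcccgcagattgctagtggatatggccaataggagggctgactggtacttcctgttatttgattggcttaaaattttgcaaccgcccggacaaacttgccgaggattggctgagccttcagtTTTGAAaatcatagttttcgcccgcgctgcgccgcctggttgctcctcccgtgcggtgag

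GRWD1, RRP12 and other genes of ribosome assembly rose. In the nucleolus, RNA polymerase I makes ribosomal RNA, which is cut, folded and joined with ribosomal proteins by a large set of assembly factors. Of 56 measured assembly factors 12 rose (21.4%, beside 2.28% of all genes) and 0 fell, 55 were above 0 and the median was 0.39. The list averaged 6.10, 6.11 and 6.27 in the mock cells, 6.11, 6.29 and 6.15 with the negative control and 6.67, 6.53 and 6.51 with the mimic, so the mimic arrays stood above all others. GRWD1, a chaperone of a ribosomal protein, read 5.01, 5.06 and 5.22 in the mock cells, 4.86, 5.14 and 4.98 with the negative control and 6.07, 5.69 and 5.94 with the mimic. It rose by 0.80 ± 0.12 (adjusted p = 0.0073), in every fit, and the negative control was at -0.10. NOL6 rose by 0.68 ± 0.12 (adjusted p = 0.019, as high as 0.082 with mock 1, mock 2, mimic 1 or mimic 2 left out), with the negative control at -0.31. RRS1 rose by 0.81 ± 0.16 (adjusted p = 0.028, as high as 0.098 with mock 1, mock 2, mimic 1, mimic 2 or mimic 3 left out), with the negative control at -0.32. Of the RNA methyltransferases, FTSJ3 rose by 0.94 ± 0.21 (adjusted p = 0.039, as high as 0.14 with any array but mock 3, negative control 2 and negative control 3 left out). NOP2 rose by 0.81 ± 0.15 (adjusted p = 0.019, as high as 0.082 with mock 1, mock 2, mimic 1 or mimic 2 left out). RRP1B, a nucleolar protein, rose by 0.87 ± 0.15 (adjusted p = 0.014, as high as 0.062 with mock 1 or mimic 1 left out). MYC, which drives many genes of ribosome assembly, was at 0.37 and did not pass. The count of 12 was 1 without mock 1, 3 without mock 2, 7 without negative control 1, 1 without mimic 1, 2 without mimic 2 and 6 without mimic 3, and 7 after another quantile normalization.

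The cytosolic ribosomal proteins are the parts that these factors assemble. Of 53 measured 6 rose (11.3%, beside 2.28% of all genes) and 0 fell, with a median of 0.30 and 48 members above 0. The 6 were RPL14 (0.62 ± 0.13), RPS9 (0.50 ± 0.11), RPS21 (0.44 ± 0.098), RPL34 (0.43 ± 0.095), RPL10 (0.39 ± 0.086) and RPL35 (0.37 ± 0.087), none of which kept its call in every fit. The count was 0 without mock 1, 0 without mock 2, 3 without mock 3, 0 without negative control 1, 2 without negative control 3, 0 without mimic 1, 0 without mimic 2 and 1 without mimic 3, and 2 with the small Cajal body RNA mean as a covariate. Ribosomal protein genes have many processed pseudogenes, and how their probes were separated was not examined. The mean of the list was 6.47, 6.54 and 6.49 in the mock cells, 6.47, 6.75 and 6.46 with the negative control and 6.86, 6.68 and 6.81 with the mimic, and negative control 2 lay among the mimic arrays. Of 73 mitochondrial ribosomal proteins 2 rose and 0 fell (median 0.21), namely MRPL30 and MRPL46, a share of 2.74% that is near the 2.28% of all genes. MRPL30 was at 0.66 ± 0.16 (adjusted p = 0.049, as high as 0.16 with any array but mock 3, negative control 1 and negative control 2 left out) and MRPL46 at 0.45 ± 0.089 (adjusted p = 0.026, as high as 0.1 with mock 1, mock 2, mock 3, mimic 1 or mimic 3 left out).

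RANGAP1, KPNA5 and other genes of nuclear transport rose. Of 53 nucleoporins and transport factors 8 rose (15.1%, beside 2.28% of all genes), 0 fell and 45 did not pass (median 0.21). Importin alpha 6, encoded by KPNA5, read 5.16, 5.36 and 5.55 in the mock cells, 5.58, 5.70 and 5.55 with the negative control and 6.26, 6.03 and 6.17 with the mimic. It rose by 0.80 ± 0.11 (adjusted p = 0.0056), and with RANGAP1 it was the member that passed in every fit. NUP210, a membrane nucleoporin, rose by 0.88 ± 0.14 (adjusted p = 0.012, and 0.055 with mock 1 left out). The importin IPO4 rose by 0.81 ± 0.16 (adjusted p = 0.028, as high as 0.11 with mock 1, mimic 1, mimic 2 or mimic 3 left out), and the nucleoporin NUP50 by 0.69 ± 0.14 (adjusted p = 0.034, as high as 0.12 with any array but mock 3, negative control 2 and negative control 3 left out). The count of 8 was 2 without mock 1, 5 without mock 2, 5 without negative control 1, 3 without mimic 1, 3 without mimic 2 and 3 without mimic 3. POLR3E, a second polymerase III subunit, which was chosen after its value was seen, rose by 0.69 ± 0.11 (adjusted p = 0.011, and 0.053 with mimic 1 left out) beside POLR3B. 

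Calls in other steps from RNA to protein were small in number. Of 28 translation factors 3 rose (10.7%) and 1 fell (3.57%), beside 2.28% and 1.62% of all genes. The rises were EIF1AD (0.65), EEF1A2 (0.55) and EEF1G (0.50), whose other feature gave 0.12. EIF4B, an initiation factor, was the one that fell (-0.48 ± 0.11, adjusted p = 0.047, as high as 0.15 with any array but negative control 2 left out), and its other feature gave -1.68. Of 102 splicing factors 4 rose (3.92%) and 1 fell (0.98%), near the 2.28% and 1.62% of all genes. PRPF38A (0.82), PRPF31 (0.56), SNRNP200 (0.51) and PRPF6 (0.44) rose, and HNRNPAB (-0.39) fell. None of these splicing factors, nor of the changed translation factors, kept its call in every fit that left out 1 array. Of 18 genes of microRNA processing 2 rose (11.1%) and 0 fell. The rises were GEMIN4 and the nuclease XRN2. GEMIN4 was at 0.69 (adjusted p = 0.023, as high as 0.093 with mock 1, mock 2, mimic 1 or mimic 2 left out). XRN2 was at 0.49 (adjusted p = 0.046) and lost its call whichever array was left out (adjusted p from 0.055 to 0.16). Of 17 aminoacyl-tRNA synthetases 1 rose (5.88%) and 0 fell, namely QARS1 (0.58 ± 0.12, adjusted p = 0.037, as high as 0.13 with any array but mock 3, negative control 2 and mimic 3 left out).

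SNAI2, TWIST1 and ZEB1, transcription factors of the mesenchymal state, fell. Epithelial to mesenchymal transition is the programme by which epithelial cells loosen their junctions and gain motility, and these 3 are among its drivers. Of 16 measured genes of the programme 0 rose and 4 fell (25%, median -0.27), beside 2.28% and 1.62% of all genes. All 4 kept their call in every fit that left out 1 array. They were SNAI2 and TNC, given above, TWIST1 and ZEB1. TWIST1 read 5.41, 5.12 and 5.31 in the mock cells, 5.14, 5.11 and 5.10 with the negative control and 4.43, 4.64 and 4.43 with the mimic. Mimic arrays lay below all others, at -0.78 ± 0.098 (adjusted p = 0.0038). ZEB1, also among the reported targets of miR-150, read 7.33, 7.27 and 7.25 in the mock cells, 7.15, 6.98 and 7.05 with the negative control and 6.70, 6.72 and 6.67 with the mimic. The 3 groups did not overlap for ZEB1, at -0.58 ± 0.076 for mimic against mock (adjusted p = 0.0043), -0.22 (adjusted p = 0.29) for the negative control against mock and -0.36 (adjusted p = 0.036) between the small RNAs. The related SNAI1 (0.14), ZEB2 (-0.07) and TWIST2 (-0.14) did not pass, nor did the structural genes VIM (-0.33) and FN1 (-0.53). The list averaged 6.16, 6.12 and 6.30 in the mock cells, 6.01, 5.96 and 6.10 with the negative control and 5.78, 5.86 and 5.77 with the mimic. Of 36 epithelial junction and keratin genes 0 rose and 2 fell (5.56%), both desmosomal cadherins. The median signal of this list was 2.65, near the array median of 2.43 to 2.48, so rises in it could have been missed. DSG2 read 7.59, 7.48 and 7.72 in the mock cells and 6.58, 6.60 and 6.33 with the mimic, a fall of 1.10 (SE 0.11, adjusted p = 0.0013), and DSC2 was at -0.51 ± 0.11 (adjusted p = 0.038, as high as 0.12 with any array but negative control 2 and mimic 2 left out).

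THBS1, LOXL1 and other matrix genes fell. Of 38 measured matrix glycoproteins 8 fell (21.1%, beside 1.62% of all genes), TNC among them, and 0 rose (median -0.17). Collagen genes were not analysed here. THBS1 (thrombospondin 1), which binds cells and activates latent TGF-beta, read 7.95, 7.72 and 8.0 in the mock cells, 8.03, 8.04 and 8.30 with the negative control and 7.07, 6.83 and 6.79 with the mimic. It fell by 1.00 (SE 0.12, adjusted p = 0.0027), and every negative control array lay above the mock arrays (0.23). LOXL1, an enzyme that cross-links elastin, read 7.26, 7.18 and 7.25 in the mock cells, 7.23, 7.43 and 7.22 with the negative control and 6.40, 6.41 and 6.40 with the mimic. Its mimic arrays lay below all others, at -0.83 ± 0.081 (adjusted p = 0.0011). NID1 (nidogen 1) of basement membranes was at -0.71 ± 0.086 (adjusted p = 0.0031) and NID2 at -0.83 ± 0.14 (adjusted p = 0.016, as high as 0.066 with mock 1, mimic 1 or mimic 3 left out). The adaptor protein MATN2 was at -0.73 ± 0.13 (adjusted p = 0.016, as high as 0.066 with mock 1, mimic 2 or mimic 3 left out). FBN1 (fibrillin 1), of microfibrils, was at -0.62 ± 0.13 (adjusted p = 0.033, as high as 0.12 with any array but mock 2 and negative control 2 left out). FBLN2 (fibulin 2) was at -0.56 ± 0.13 (adjusted p = 0.042, as high as 0.14 with any array but mock 2, negative control 1 and negative control 2 left out). The count of 8 was 4 without mock 1, 5 without mimic 1, 5 without mimic 2 and 4 without mimic 3. LOX (0.01), LUM (-0.02) and FBLN1 (0.22) are examples that did not pass.

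Proteases and their inhibitors went both ways, with 3 of 71 rising (4.23%) and 4 falling (5.63%), beside 2.28% and 1.62% of all genes. CTSL (cathepsin L), a lysosomal protease that cells also secrete, read 10.17, 10.09 and 10.33 in the mock cells, 9.95, 10.05 and 9.94 with the negative control and 9.08, 9.29 and 9.04 with the mimic. It fell by 1.06 (SE 0.096, adjusted p = 0.00082). MMP14, the membrane-bound metalloproteinase that activates MMP2, was at -0.84 ± 0.11 (adjusted p = 0.0052), and TIMP2, an inhibitor that takes part in that activation, at -0.94 ± 0.14 (adjusted p = 0.0094), with negative control 2 within the range of the mimic arrays. The fourth fall was MMP1, and the rises were ADAMTSL1, TFPI and PAPPA2. PAPPA2, which cleaves IGF-binding proteins, read 3.77, 3.47 and 4.05 in the mock cells, 3.12, 3.20 and 3.29 with the negative control and 4.36, 4.89 and 4.38 with the mimic, with the negative control lowest. It was at 0.78 ± 0.17 against mock (adjusted p = 0.04, as high as 0.12 with any array but mock 3 left out).

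TAGLN, 3 tropomyosin genes and other contractile genes fell. The transcription factor SRF binds CArG boxes in promoters of smooth muscle genes, which basal breast lines also express. Of 21 measured genes 7 fell (33.3%) and 0 rose (median -0.18), beside 1.62% falling and 2.28% rising over all genes. The list averaged 5.41, 5.29 and 5.41 in the mock cells, 5.20, 5.08 and 5.17 with the negative control and 5.03, 5.10 and 5.01 with the mimic. All negative control arrays lay below the mock arrays, and negative control 2 lay among the mimic arrays. TAGLN (transgelin), an actin-binding marker of smooth muscle, read 5.37, 5.05 and 5.22 in the mock cells, 3.83, 4.12 and 3.79 with the negative control and 4.19, 4.19 and 3.94 with the mimic. The negative control arrays lay with or below the mimic arrays, so TAGLN was at -1.10 ± 0.12 for mimic against mock (adjusted p = 0.0022) and -1.30 (adjusted p = 0.0026) for negative control against mock. Tropomyosins, which line actin filaments, also fell. TPM1 was at -1.32 ± 0.2 (adjusted p = 0.0081), its other feature giving -1.14, TPM2 at -0.87 ± 0.097 (adjusted p = 0.0022) and TPM4 at -0.51 ± 0.085 (adjusted p = 0.013, as high as 0.057 with mock 1 or mimic 1 left out). The negative control against mock was at -0.59 for TPM1, -0.29 for TPM2 and -0.31 for TPM4, and these did not pass. SRF itself was at -0.66 ± 0.12 (adjusted p = 0.017, as high as 0.064 with mock 2, mimic 1, mimic 2 or mimic 3 left out), and the oxytocin receptor gene OXTR at -1.07 ± 0.18 (adjusted p = 0.014, as high as 0.053 with mock 1, mimic 2 or mimic 3 left out). MYLK, the kinase of myosin light chain, was at -0.46 ± 0.091 (adjusted p = 0.028, as high as 0.11 with mock 1, mimic 1, mimic 2 or mimic 3 left out), with the negative control at -0.52 (adjusted p = 0.041, 0.097 with the replicate block). The count of 7 was 4 without mock 1, 4 without mimic 1, 4 without mimic 2 and 4 without mimic 3, and KRT5 (-0.18) and KRT14 (0.09), keratins of basal cells, did not pass. Of 20 genes driven by the co-activator YAP 2 fell (10%) and 0 rose. CCN2 (connective tissue growth factor), 1 of the 2, read 9.06, 9.04 and 9.42 in the mock cells, 8.15, 8.23 and 8.37 with the negative control and 8.38, 8.48 and 8.39 with the mimic. It was at -0.76 ± 0.11 (adjusted p = 0.0081), and its other, dimmer feature gave -1.45. The negative control was at -0.92 (adjusted p = 0.0095), and MYOF (-0.70) was the other of the 2 falls.

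A CArG box, a motif of 10 letters searched on both strands, stood in 6 of 17 contractile genes with a window (35.294%), against 1.721% of tested genes, and in 3 of the 6 with a window that fell. SRF has it in a promoter window of its own at chr6:43171019-43171318 on the plus strand and MYLK at chr3:123620499-123620798 on the minus strand, printed with the boxes in capitals. As with the E2F box, the list was chosen by function and the matches do not show binding.
SRF promoter: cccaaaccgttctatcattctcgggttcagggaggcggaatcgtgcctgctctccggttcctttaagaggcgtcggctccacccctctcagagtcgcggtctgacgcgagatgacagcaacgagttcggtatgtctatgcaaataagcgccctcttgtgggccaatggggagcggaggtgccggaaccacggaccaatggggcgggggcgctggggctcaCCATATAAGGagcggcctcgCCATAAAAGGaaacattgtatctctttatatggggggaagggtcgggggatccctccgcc
MYLK promoter: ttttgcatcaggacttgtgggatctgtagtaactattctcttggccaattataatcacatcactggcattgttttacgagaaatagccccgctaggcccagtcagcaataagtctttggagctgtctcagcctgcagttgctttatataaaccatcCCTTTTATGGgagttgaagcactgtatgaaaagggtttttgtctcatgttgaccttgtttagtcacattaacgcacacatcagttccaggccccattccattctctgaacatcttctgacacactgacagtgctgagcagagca

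Counts in signalling pathways are set beside the 2.28% rising and 1.62% falling over all genes. Of 36 TGF-beta and BMP pathway genes 0 rose and 3 fell (8.33%). These were CD109, the ligand BMP4 and the decoy receptor BAMBI. BMP4 read 6.36, 6.36 and 6.56 in the mock cells, 6.44, 6.81 and 6.84 with the negative control and 5.57, 5.78 and 5.23 with the mimic. Its mimic arrays were the lowest and its negative control the highest, and it was at -0.90 ± 0.15 against mock (adjusted p = 0.014, and 0.056 with mimic 1 left out). BAMBI was at -0.58 ± 0.12 (adjusted p = 0.028, as high as 0.1 with mock 1, mock 2, mock 3, mimic 1 or mimic 2 left out), and the transducers SMAD3 (-0.30) and SMAD4 (-0.26) did not pass. Of 22 IGF axis genes 2 rose (9.09%) and 3 fell (13.6%), the falls being IGFBP5, STC1 and IGFBP4 and the rises PAPPA2 and IGF2BP3. IGFBP4 was at -0.75 ± 0.16 (adjusted p = 0.036, as high as 0.11 with mock 1, mock 2, negative control 1, mimic 1 or mimic 2 left out). IGF2BP3, which binds IGF2 messenger RNA, was at 0.48 ± 0.11 (adjusted p = 0.047, as high as 0.16 with any array but mock 3 left out). The receptor IGF1R was at 0.02 and did not pass. Of 20 genes that FOXO factors switch on 0 rose and 4 fell (20%). They were FBXO32, the repressor BCL6, FOXO1 itself and CAT (catalase). BCL6 was at -0.84 ± 0.17 (adjusted p = 0.028, as high as 0.096 with any array but mock 2, negative control 2 and negative control 3 left out). FOXO1 was at -0.78 ± 0.15 (adjusted p = 0.025, as high as 0.091 with mock 1, mimic 2 or mimic 3 left out). CAT was at -0.77 ± 0.17 (adjusted p = 0.04, as high as 0.14 with any array but mock 2 and negative control 2 left out). Of 29 Wnt pathway genes 0 rose and 1 fell (3.45%), which was SFRP1 (-0.61), a secreted Wnt antagonist.

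Some hypoxia-linked genes fell. Of 28 measured 0 rose and 5 fell (17.9%, against 1.62% of all genes), with a median of -0.06. The glycolytic members LDHA (0.07), PGK1 (0.15), GAPDH (0.10) and HK2 (-0.23) did not pass. Those that fell were EPAS1, CA12, STC1, VEGFA and NDRG1. CA12, a carbonic anhydrase of the cell surface, read 5.82, 5.82 and 6.43 in the mock cells, 5.96, 5.78 and 6.19 with the negative control and 4.73, 4.85 and 4.81 with the mimic. It fell by 1.22 (SE 0.17, adjusted p = 0.0055), with the negative control at -0.05. The hormone STC1 was at -0.78 ± 0.12 (adjusted p = 0.008), with 8.12, 7.97 and 8.33 in the mock cells and 7.29, 7.51 and 7.27 with the mimic. VEGFA, the main angiogenic factor, was at -0.70 ± 0.12 (adjusted p = 0.013, and 0.056 with mock 1 left out), with the negative control at -0.38, and NDRG1 at -0.66 ± 0.14 (adjusted p = 0.031, as high as 0.099 with any array but negative control 2 and negative control 3 left out). The count was 3 without mock 1.

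Redox, lipid, interferon and surface genes each held a few calls, set beside 2.28% rising and 1.62% falling over all genes. GSR (glutathione reductase), which keeps glutathione reduced, read 7.60, 7.59 and 7.82 in the mock cells, 7.88, 7.64 and 7.98 with the negative control and 6.36, 6.50 and 6.42 with the mimic. It fell by 1.25 (SE 0.11, adjusted p = 6e-04), and no mimic array came within 1 unit of a control array. With CAT and TXNRD1 it made up 3 falls in 30 redox genes, of which 1 rose. TXNRD1 (thioredoxin reductase) was at -0.58 ± 0.12 (adjusted p = 0.028, as high as 0.1 with mock 1, mock 3, mimic 2 or mimic 3 left out). TXN2, the mitochondrial thioredoxin, rose by 0.79 ± 0.15 (adjusted p = 0.021, as high as 0.09 with mock 1, mock 2, mimic 1 or mimic 3 left out). CD24, a sugar-coated surface protein used to sort stem-like breast cancer cells, read 9.47, 9.50 and 9.59 in the mock cells, 8.82, 9.25 and 9.02 with the negative control and 8.38, 7.98 and 8.39 with the mimic. It was at -1.27 ± 0.14 (adjusted p = 0.0017), 3 steps without overlap, while SOX9 (-0.47) and CD44 (-0.36) did not pass, and 0 rose and 1 fell of 15 such markers. Of 50 interferon-induced and Schlafen genes 0 rose and 2 fell, SLFN5 and IFITM1. IFITM1, which blocks virus entry, was at -0.90 ± 0.12 (adjusted p = 0.0056), with 5.00, 5.00 and 5.20 in the mock cells and 4.14, 3.93 and 4.42 with the mimic, whereas the classical sensors and effectors IFIT1 (0.15), IFIH1 (-0.15) and MX2 (0.08) did not pass. Of 24 inflammatory genes 1 rose and 1 fell, and the rise was CXCL8 (0.62). CSF1, the macrophage growth factor, fell by 1.01 (SE 0.13, adjusted p = 0.0038), with the negative control at -0.86 (adjusted p = 0.018).

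In cholesterol and fatty acid synthesis, 1 of 30 genes rose (3.33%) and 2 fell (6.67%), beside 2.28% and 1.62% of all genes. SCD, which puts a double bond into fatty acids, was at -0.62 ± 0.12 (adjusted p = 0.025, as high as 0.092 with mock 1, mock 3, mimic 1 or mimic 3 left out), its other feature giving -1.25. ACSS2, which activates acetate, was at -0.49 ± 0.11 (adjusted p = 0.041, as high as 0.14 with any array but mock 2 left out). NSDHL, of cholesterol synthesis, was at 0.48 ± 0.11 (adjusted p = 0.046, as high as 0.16 with any array but negative control 2 and negative control 3 left out). Of 18 chaperone genes 2 rose and 0 fell. HSPA1A, the inducible HSP70, read 7.82, 7.97 and 8.09 in the mock cells, 8.63, 8.78 and 8.70 with the negative control and 8.53, 8.32 and 8.53 with the mimic, and the negative control was the highest group. HSPA1A was at 0.50 ± 0.099 (adjusted p = 0.027, as high as 0.1 with mock 1, mock 2, mimic 1 or mimic 3 left out) and its near-identical copy HSPA1B at 0.42 ± 0.1 (adjusted p = 0.048, as high as 0.17 with any array but mimic 2 left out). These genes cannot be told apart with certainty, because their probes may read both. DDIT3 (CHOP), a stress factor, was at -0.84 ± 0.16 (adjusted p = 0.025, as high as 0.096 with mock 1, mock 3, mimic 1, mimic 2 or mimic 3 left out), with the negative control at -0.91 (adjusted p = 0.048, 0.12 with the replicate block), and with VEGFA it made up the 2 falls in 23 genes of the amino acid response, of which 0 rose. Of the Notch pathway HEY1 fell (-0.99 ± 0.16, adjusted p = 0.012, as high as 0.053 with mock 1 or mimic 1 left out) and 36 of 37 did not pass, with the ligand JAG1 at -0.05. The negative control of HEY1 was at -0.68 against mock and did not pass. Of 471 numbered ZNF genes 8 rose (1.7%) and 4 fell (0.849%), below the 2.28% and 1.62% of all genes. ZNF25 (-1.31 ± 0.13, adjusted p = 0.0011) and ZNF695 (0.87 ± 0.13, adjusted p = 0.0071) passed in every fit. The negative control against mock was at -0.54 for ZNF25 and at 0.71 for ZNF695 (adjusted p = 0.041, 0.093 with the replicate block). ZNF138 (0.93), ZNF43 (0.92), ZNF91 (0.92), ZNF431 (0.90) and ZNF367 (0.87) were the other larger rises, and ZNF462 (-0.93), ZNF575 (-0.43) and ZNF709 (-0.41) the other falls. Of 41 lysosome and autophagy genes ATG7 (0.70) and MCOLN1 (0.55) rose and CTSL fell, which is 2 and 1. BIRC5 was the 1 rise in 30 genes of p53 and cell death, HOXB2 (0.58) the 1 rise in 27 HOX genes, and SLC49A4 and SLC25A15 (-0.59) the 2 falls in 17 solute carriers. No call was made among 26 respiratory chain genes or 14 focal adhesion genes.

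**Figure D4:**
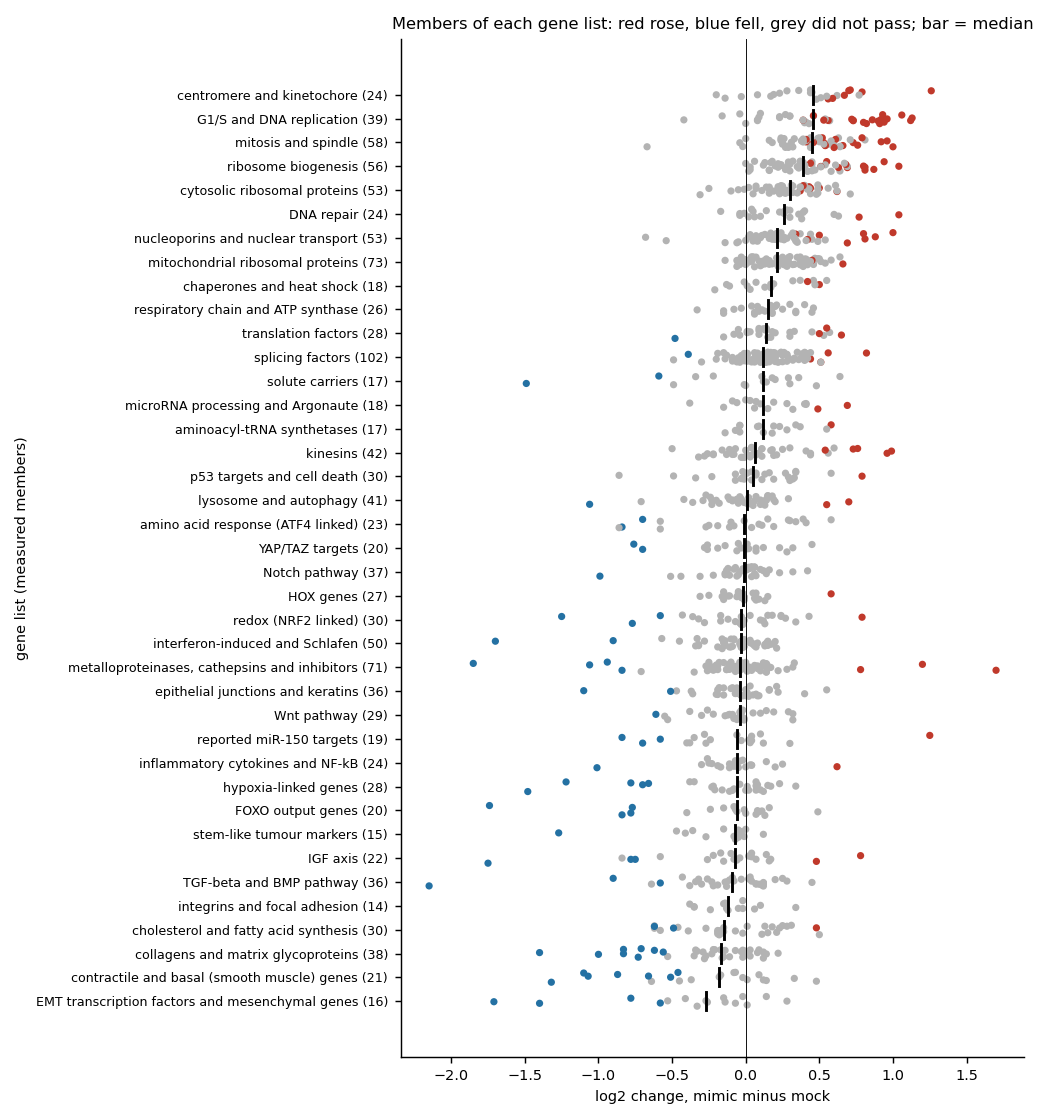
Log2 change in mimic against mock (horizontal) of every measured member of each gene list (rows, number measured in brackets), without the marker lists, the numbered ZNF genes and the small Cajal body RNAs, with genes that rose in red, genes that fell in blue and others in grey, and a black bar at the list's median. Medians run from 0.46 for the centromere and replication lists at the top to -0.27 for the mesenchymal list at the bottom, and most members of most lists are grey.

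Reported targets of miR-150 went in both directions. Of 19 measured 1 rose and 3 fell (median -0.06), beside 2.28% and 1.62% of all genes. MMP14, VEGFA and ZEB1 fell, and HMGA2, also reported as a target, was among the largest rises. MYB, the best-known target, read 2.20, 2.62 and 2.42 in the mock cells, 2.42, 2.49 and 2.42 with the negative control and 2.36, 2.36 and 2.42 with the mimic, all near the array median, and was at -0.03 ± 0.1 (adjusted p = 0.92). NOTCH3 was at 0.12 ± 0.21 (adjusted p = 0.85), with arrays from 5.49 to 6.0 in mock and 5.58 to 5.99 in the mimic. CXCR4 was at -0.06 ± 0.11 (adjusted p = 0.85), also near the array median, and EGR2 was not analysed here. The feature of MIR150, which reads the gene and not the mature RNA put into the cells, was at -0.09 ± 0.2 (adjusted p = 0.89), so it checks nothing about the labels. A miss of the threshold does not show that these genes did not change.

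Leaving out single arrays changed how many genes passed. Of 186 changed genes examined in this way, 64 passed in every fit that left out 1 array. That 0 turned direction in any of 1674 recomputed values was fixed in advance and measures no stability. In all 580 changed genes the mimic arrays lay apart from the mock arrays, so any arrays kept give the same sign. With the 6 mimic and mock arrays alone 321 genes changed. The spread is then estimated from fewer arrays, and why the count fell was not tested. On simulated data of 14884 genes with 3 arrays a group, 95 of 100 genes planted at a log2 change of 1 were recovered and 51 of 100 at 0.5. There were 5 false calls at each size. The simulation does not show that these shares hold for the arrays here, whose counts moved with single arrays.

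**Figure D5:**
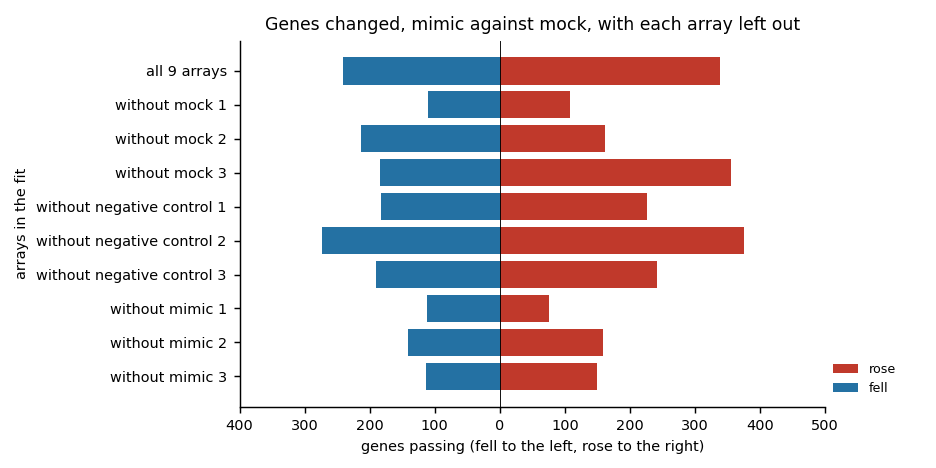
Genes that passed in mimic against mock, rising to the right in red and falling to the left in blue, for the fit on all 9 arrays (339 and 241) and for each fit without 1 array. The bars are shortest without mimic 1 (188 genes) and mock 1 (219 genes) and longest without negative control 2 (650 genes).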

How the data were processed

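Total RNA of BT-549 cells (1 ug, Trizol, FlashTag biotin label) was read on Affymetrix Human Gene 2.0 ST arrays, per the labels, in 3 mock, 3 negative control and 3 mimic samples. The deposited unit is a log2 signal that the authors computed by RMA, per the submitters' processing notes. RMA subtracts background, brings the arrays to 1 distribution and sums a feature's probes, so shifts common to all genes are removed. Its version was not given in the sources used here, nor was the array definition. The table had 53617 features on 9 arrays and 0 missing values. Of these, 16098 had exactly 1 symbol in the platform annotation, and 37519 did not. The brightest feature stood for each of 779 genes with several, which left 14884 genes with no filter.

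Genes were fitted with limma 3.58.1 in R 4.3.3 (lmFit, eBayes) on all 9 arrays with 1 mean per group (6 residual, 9.6 total degrees of freedom). The p-values were two-sided, adjusted by Benjamini-Hochberg over all genes, and a gene changed at an adjusted p under 0.05. Gene lists (46, of which 45 had measured members) were written from general knowledge and are described by counts and medians, with no test of a list. The comparison, members and lists were chosen with earlier results of these data known. Named were the 15 largest rises and falls whose arrays did not overlap (without microRNA, small nuclear, uncharacterised and open reading frame loci), known or proposed miR-150 targets, and up to 5 changed members of each list in each direction. Further list members were named after their values were seen. Where a call was lost with 1 array left out, the arrays and the highest adjusted p are given for genes printed with an adjusted p. Changed genes printed without an adjusted p lost their call in at least 1 such fit.

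Alternatives were a second quantile normalization, median centring, signal filters, feature means, array weights, a variance trend with robust fit, the 6 arrays alone, a replicate block, a covariate of small Cajal body RNAs, a stricter adjusted p of 0.01, a 1.5-fold minimum and leaving out each array. Leaving out mock 2 and negative control 2 together, and all features, were added after seeing the data. Deviations of same-numbered negative control and mock arrays correlated (r = 0.152, 0.225 and 0.147), which by the rule used (every pair over 0.1) pairs these groups, while the mimic arrays paired with neither group. The blocked p, an alternative also added after seeing the data, stands beside a negative control value where it changes the call. The array number limits the precision. Promoter windows are RefSeq sequences. The mature sequence of miR-150-5p was not used here.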

Additional observations from a re-analysis of the deposited data

Results flagged for a closer look

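Signal appeared among the features that have no single gene symbol and so stand outside every comparison above. When limma was run over all 53617 features, 134 of the 37519 without a single symbol passed in mimic against mock (0.357%), of which 61 rose and 73 fell, with changes from -2.37 to 2.44. They are not named here, and what they read was not tested.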

How the results depend on the processing

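Of 3162 recomputed values of single genes, 2258 stayed on the same side of the threshold, 904 fell below it and 0 reversed. The 1674 of these from fits that left out 1 array could not reverse, since the mimic and mock arrays of these genes lie apart. The count of changed genes was 904 with array weights, 346 with the replicate block, 321 with the mimic and mock arrays alone, 362 at 1.5-fold or more, 144 at an adjusted p under 0.01 and 329 over all features. Rises were 513 with a filter at the median signal, 539 with array weights, 173 with the 6 arrays alone, 180 with the replicate block, 65 at an adjusted p under 0.01, 194 at 1.5-fold or more, 209 without mock 2 and negative control 2, and 155 over all features. Falls were 365 with array weights, 148 with the 6 arrays alone and 79 at an adjusted p under 0.01. Leaving out each array in turn gave 188 to 650 changed genes, 76 to 376 rises and 111 to 274 falls. The same fits gave members that changed of 7 to 19 for replication, 6 to 20 for mitosis, 1 to 8 for the centromere, 0 to 7 for ribosomal proteins, 1 to 15 for ribosome biogenesis, 2 to 8 for nuclear transport, 4 to 8 for matrix, 4 to 8 for contractile and 3 to 5 for hypoxia-linked genes, and a contractile median of -0.24 to -0.18. Ribosomal proteins that rose numbered 2 after another quantile normalization, 0 with the replicate block and 1 without mock 2 and negative control 2. For ribosome biogenesis these were 7, 4 and 4. Nuclear transport rises were 5 with the block and 4 without mock 2 and negative control 2. The contractile median was -0.25 after another quantile normalization and -0.24 without that pair. The cause of these moves was not tested. Mimic and mock arrays of the same number did not deviate together across genes (r = -0.0544, -0.194 and -0.178), and no mimic array correlated best with the mock array of its number, so the numbers do not pair these 2 groups and the block on their contrast is given only here. The negative control and mock arrays met the rule for pairing by number, but this does not show a shared batch. Arrays of unlike number correlated as highly, such as mimic 1 and negative control 2 (r = 0.24). The block ended the call of 68 of 186 changed genes.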

Other observations

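Several enzymes that build glycosaminoglycans, the sulfated sugar chains of proteoglycans, fell. These genes were chosen after their values were seen, and no list of them was tested. PAPSS2, which makes the sulfate donor, is described above. UGDH, which makes the glucuronic acid building block, read 8.02, 7.67 and 8.07 in the mock cells, 7.31, 7.20 and 7.21 with the negative control and 6.85, 6.75 and 6.59 with the mimic. The 3 groups did not overlap, at -1.19 ± 0.12 for mimic against mock (adjusted p = 0.0012), -0.68 (adjusted p = 0.041, 0.074 with the replicate block) for the negative control against mock and -0.51 (adjusted p = 0.051) between the small RNAs. DSEL, related to the epimerase of dermatan sulfate, read 7.51, 7.26 and 7.31 in the mock cells, 7.14, 6.60 and 6.99 with the negative control and 6.06, 5.85 and 5.99 with the mimic and was at -1.39 ± 0.14 (adjusted p = 0.0012). UST, a sulfotransferase acting on uronic acid, was at -0.77 ± 0.13 (adjusted p = 0.014, as high as 0.066 with mock 1, mimic 1 or mimic 3 left out). The xylosyltransferases GXYLT1 and GXYLT2, which extend sugars on Notch proteins, moved in opposite ways. GXYLT1 rose by 1.02 ± 0.11 (adjusted p = 0.0016), with 4.27, 4.03 and 4.32 in the mock cells and 5.40, 5.19 and 5.11 with the mimic, and GXYLT2 fell by 1.12 (SE 0.2, adjusted p = 0.017, as high as 0.076 with mock 1, mimic 1 or mimic 3 left out), with 8.50, 8.17 and 8.61 in the mock cells and 7.13, 7.51 and 7.29 with the mimic.

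A few features of microRNA genes changed, also chosen after their values were seen. MIR424 read 6.65, 6.07 and 6.70 in the mock cells, 5.47, 5.49 and 5.74 with the negative control and 5.46, 5.71 and 5.48 with the mimic. It was at -0.93 ± 0.16 (adjusted p = 0.017, as high as 0.076 with mock 1, mimic 1 or mimic 3 left out), with the negative control at -0.91 (adjusted p = 0.048, 0.092 with the replicate block) against mock. MIR155 rose by 0.70 ± 0.13 (adjusted p = 0.02, as high as 0.085 with mock 1, mock 2, mimic 1 or mimic 2 left out). MIR100 rose by 1.06 ± 0.23 (adjusted p = 0.036, as high as 0.12 with any array but negative control 2 and mimic 2 left out). MIR590 rose by 1.08 ± 0.25 (adjusted p = 0.048, as high as 0.15 with any array but negative control 1 and negative control 2 left out). The MIR100 arrays of the mimic were uneven, at 3.37, 2.69 and 3.83, against 2.21 to 2.27 in mock. Whether a feature reads the mature microRNA, its precursor or the host transcript was not tested.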
